A study of Danio rerio with 6 samples.

Results

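The genes described here are the creatine kinases of the zebrafish (Danio rerio) and the genes that supply their substrate, creatine, read in red-fluorescent cells sorted from larval eyes. They were chosen by symbol from a list of 10, of which 9 had a row among the 14781 genes of the deposited table, namely ckba, ckbb, ckma, ckmb, ckmt1, ckmt2a, ckmt2b, gatm and gamt. The creatine transporter gene slc6a8 was not analysed here. All larvae were 5 days post-fertilization and carried thrb:tdTomato, a red reporter under control of the thyroid hormone receptor gene thrb, which marks red cones. In one group the reporter had been crossed into wild-type (WT) fish. In the other both parents were homozygous for the stl888 allele of samd7, a photoreceptor gene of the Polycomb family, and these larvae were labelled samd7-/-. Each genotype had 3 libraries, each from 20 to 25 larvae of a separate clutch pooled before sorting. Only a subset of each clutch was genotyped, and the genotypes had different parents, so genotype and parental line cannot be told apart.

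Creatine kinases move a phosphate group between ATP and creatine, so that phosphocreatine can buffer and carry energy to places of high ATP use. Mitochondrial forms charge creatine beside the respiratory chain, and cytosolic forms regenerate ATP at the site of use. In vertebrate photoreceptors the ellipsoid packed with mitochondria lies apart from the synapse and the ion pumps of the inner segment, and the kinases are known to be abundant there. Creatine itself is made in a pair of steps, by gatm and then gamt, or taken up from outside the cell.

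Depth was 13435570 to 18911482 recovered reads for WT libraries and 18418834 to 20369266 for those labelled samd7-/-. Levels are given as normalized counts, which are reads divided by the authors' size factor of a library, and a count of 0 allows up to 2.24 to 3.99 normalized counts, taking 3 reads as the limit. The samd7 transcript itself was higher in the libraries labelled samd7-/- (24329 ± 543 against 7683 ± 896, SD, n = 3 each), so its level does not check the genotype. The level of thrb was 14152 ± 2052 in WT and 10677 ± 604 in the other group, with a log2 difference of -0.40 that missed the threshold (limma adjusted p = 0.200). Of 8 genes listed for red cones 5 fell and 1, the red opsin opn1lw1, rose with limma. The 5 were arr3a, opn1lw2, pde6h, pde6c and gnat2, of which pde6h, pde6c and gnat2 are genes of cones in general. With each library left out in turn, arr3a kept the limma call in 6 fits and opn1lw2 and pde6h in 5. The calls of pde6c, opn1lw1 and gnat2 were kept in 4, 3 and 2 fits. With edgeR gnat2 did not pass (adjusted p = 0.0630). With library totals in place of the authors' scaling opn1lw1 did not pass (limma adjusted p = 0.0531). Of 6 UV and blue cone markers 3, tbx2a, arr3b and tbx2b, rose with limma. The UV opsin opn1sw1 had mean normalized counts of 28128 in WT and 1167971 in the other group. It missed limma's threshold (adjusted p = 0.0720) but was called higher by edgeR (adjusted p = 0.00919) and DESeq2 (adjusted p = 6.33e-12). Some markers of other retinal cells were called too. With limma, 4 of 10 horizontal cell, 3 of 10 amacrine cell, 1 of 10 bipolar cell and 1 of 14 Müller glia markers were higher, and 0 lower. Over all tested genes limma called 1.26% higher and 3.90% lower. With each library left out in turn, barhl2 and tfap2b kept the call in all 6 fits and glula in 5. The markers rem1, onecut1 and pax6b kept it in 3, and cx52.9, pax6a and isl1 in only 1. Of 11 rod, 9 retinal ganglion cell, 9 lens, 5 skeletal muscle and 5 pigment epithelium markers tested, 0 passed with limma.

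Of the 9 genes, 6 had at least 10 normalized counts in at least 3 libraries and were tested, and 2 of these, ckbb and ckmt2a, were called lower with limma in the libraries labelled samd7-/-. Among all 9886 tested genes, 3.90% were called lower and 1.26% higher with limma at an adjusted p under 0.05. With edgeR, which called 4.36% of these genes, ckbb alone of the 6 passed, and with DESeq2, which called 8.80%, ckbb, ckmt2a and ckmt2b did, while ckmt1 and gamt received no adjusted p from DESeq2. With limma the other 4 tested genes, ckba, ckmt2b, ckmt1 and gamt, did not pass.

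**Figure D1:**
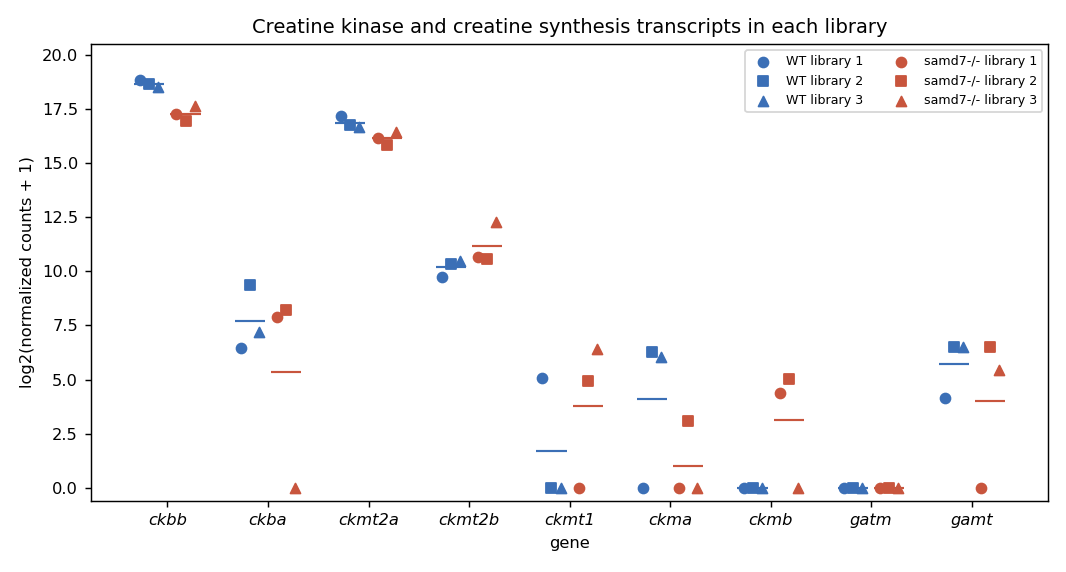
Level of each of the 9 genes in each library, as log2(normalized counts + 1), with WT in blue, samd7-/- in red, one marker shape per library number and a line at the mean of the logs. For ckbb and ckmt2a every WT point lies above every samd7-/- point, for ckmt2b every WT point lies below, and gatm is at 0 throughout. Of all tested genes, 12.4% separated downward and 12.1% upward in this way.

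The brain-type cytosolic kinase ckbb had the clearest difference. Its level was 464662, 406541 and 379639 normalized counts in WT libraries 1 to 3 and 155274, 127461 and 204842 in libraries 1 to 3 labelled samd7-/-. All 3 WT libraries thus lay above all 3 others, a downward separation seen for 12.4% of tested genes. The mean went from 416948 ± 43456 to 162526 ± 39197 (SD, n = 3 each), 2.57-fold lower. On the log2 scale ckbb fell by 1.38 (SE 0.18, 95% interval -1.76 to -1.01, limma adjusted p = 0.000415), which ranked 42 among the 9886 genes by adjusted p. The authors' deposited table gives ckbb a log2 fold change of -1.36 with an adjusted p of 9.25e-11. Of all normalized counts in a library, the transcript took 2.12% to 2.47% in WT and 0.900% to 1.15% in the others. In bulk samples such as these, fewer cells of a type and less RNA per cell cannot be told apart.

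Its paralog ckba, the other brain-type kinase gene, was read at low levels that varied widely within each genotype. The WT libraries had 87.8, 670 and 145 normalized counts of ckba, and the libraries labelled samd7-/- had 238, 294 and 0. The groups overlapped, and the library at 0 set the direction of the fitted value. The log2 difference of ckba was -2.32 (SE 2.17, 95% interval -7.41 to 2.78, limma adjusted p = 0.633), and it was 0.37 without library 3 labelled samd7-/-. The value of ckba was -0.76 with edgeR and with DESeq2 and -1.26 with a pseudocount of 10. Relative to the summed ckba and ckbb signal, ckba held 0.0189% to 0.165% (WT) and 0% to 0.230% (samd7-/-). The sources used here do not give the handling of reads that match both paralogs, so the split between ckba and ckbb, and between ckmt2a and ckmt2b, is uncertain.

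Among the mitochondrial kinases the sarcomeric-type paralogs ckmt2a and ckmt2b pointed in opposite directions, and of the pair limma called only the lower level of ckmt2a. The level of ckmt2a was 148684, 109442 and 105306 normalized counts in WT libraries 1 to 3 and 73507, 59229 and 89620 in libraries 1 to 3 labelled samd7-/-. The groups did not overlap, a downward separation seen for 12.4% of tested genes. The mean went from 121144 ± 23940 to 74119 ± 15205, 1.63-fold lower. On the log2 scale ckmt2a fell by 0.71 (SE 0.18, 95% interval -1.11 to -0.32, limma adjusted p = 0.0407). This call was close to the threshold. It was lost with edgeR (adjusted p = 0.0958) and without WT library 1 (0.197), WT library 2 (0.115), WT library 3 (0.0748), library 1 labelled samd7-/- (0.140) or library 2 labelled samd7-/- (0.0874), each with limma. Without library 3 labelled samd7-/- it was kept, with a log2 change of -0.86 (limma adjusted p = 0.00470). The authors' deposited table gives ckmt2a a log2 fold change of -0.71 with an adjusted p of 0.00654.

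The paralog ckmt2b was read at 865, 1274 and 1426 normalized counts in WT libraries 1 to 3 and at 1606, 1537 and 4903 in libraries 1 to 3 labelled samd7-/-. Each library labelled samd7-/- was above each WT library, as was so for 12.1% of tested genes, and library 3 of that group stood far above the rest. The mean went from 1188 ± 290 to 2682 ± 1924. The log2 difference of ckmt2b was 0.98 (SE 0.40, 95% interval 0.10 to 1.86) and did not pass limma's threshold over all genes (adjusted p = 0.206), nor edgeR's (adjusted p = 0.154). DESeq2 called it (log2 change 1.17, adjusted p = 0.0348), and the authors' deposited table gives ckmt2b a log2 fold change of 1.17 with an adjusted p of 0.0515. Without library 3 labelled samd7-/- the log2 difference was 0.43 (limma adjusted p = 0.422). Markers of some other cell types were higher in the same libraries. Müller glia markers (all 14 listed, 0 of them at 0 in every library) summed to 58366 to 84704 normalized counts in WT and 92694 to 171000.5 in the other group. Horizontal cell markers (10 of 11 listed) summed to 10087 to 12062 and to 18801 to 21421. UV and blue cone markers (all 6 listed) summed to 15534 to 67883 in WT, against 1530767, 1429123 and 2231476 in the other libraries in the order of their numbers. Rod markers (11 of 14 listed) summed to 21759, 79631 and 96554 normalized counts in WT libraries 1 to 3. In libraries 1 to 3 labelled samd7-/- they summed to 24765, 25308 and 77089. Library 3 of each genotype had its highest rod sum, and likewise its highest UV and blue cone sum and ckmt2b level. Among the libraries labelled samd7-/-, library 3 also had the highest red cone sum and the most normalized counts in total. The Müller glia and horizontal cell sums were highest in library 2 of that group. In WT the red cone sum and the total were highest in library 1, and the Müller glia and horizontal cell sums in library 3. Amacrine, bipolar and retinal ganglion cell sums were also higher in each library labelled samd7-/- than in each WT library. How often sums of other gene lists separate in this way was not computed. Amacrine cell sums were 15137 to 21647 in WT and 21701 to 26078 in the other group. Red cone markers (all 8 listed) summed to 3384819 to 3556940 in WT and to 872189 to 1546674 in the other group. Rod, lens and pigment epithelium sums overlapped between the genotypes. The skeletal muscle sum was lower in the libraries labelled samd7-/-, but without tpma, its most abundant gene, the sums overlapped. The part of any of these cells in the ckmt2b values was not tested.

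The ubiquitous-type mitochondrial kinase ckmt1 was read in 3 of 6 libraries. It had 32.5, 0 and 0 normalized counts in WT and 0, 29.9 and 83.7 in the libraries labelled samd7-/-, from 27, 40 and 96 reads where it was read. Each genotype held libraries with and without the transcript. The log2 difference was 2.096 with an interval from -3.15 to 7.34 (limma adjusted p = 0.707), so that a difference of either sign was within the precision of these data. It was 1.05 with a pseudocount of 10.

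**Figure D2:**
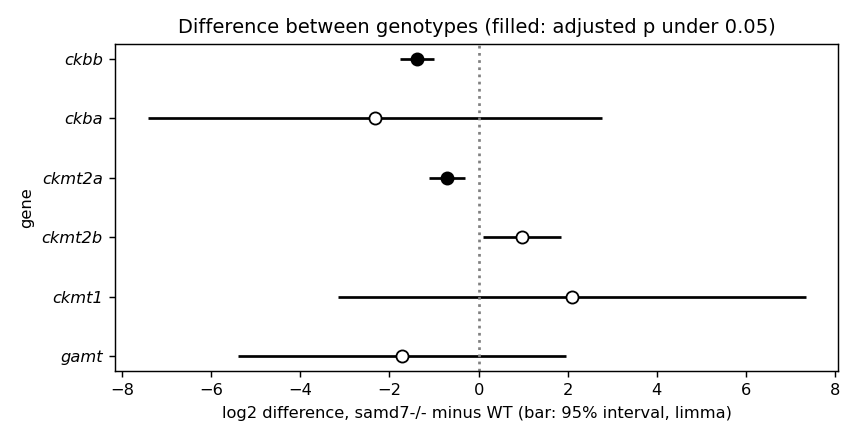
Log2 difference of the 6 tested genes, samd7-/- minus WT, with the 95% interval of the limma fit as a bar and filled points where the adjusted p is under 0.05. The intervals of ckbb and ckmt2a lie below 0, and that of ckmt2b lies above 0 without passing the adjusted threshold. Those of ckba, ckmt1 and gamt span several log2 units and include 0.

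The 7 kinases together took 3.27%, 2.81% and 2.72% of normalized counts in WT libraries 1 to 3 and 1.52%, 1.33% and 1.69% in libraries 1 to 3 labelled samd7-/-. Their sum was 539639 ± 66566 normalized counts in WT and 239561 ± 55965 in the other group, with no overlap. Most of this sum was ckbb, so its separation largely repeats that of ckbb. These sums and the shares below are of normalized counts not divided by transcript length, so they serve to set libraries side by side and do not give the relative amounts of different kinases. No test was made on them, since the genes were chosen with results of these data known.

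The make-up of the kinase signal also differed between the genotypes. The share of ckbb was 75.6%, 78.5% and 78.0% in WT libraries 1 to 3 and 67.3%, 67.6% and 68.4% in libraries 1 to 3 labelled samd7-/-. The share of the mitochondrial forms was 22.6% ± 1.58 in WT and 32.1% ± 0.495 in the other group, so that mitochondrial forms held more of a smaller total. Reads of ckbb per read of ckmt2a numbered 3.13 to 3.71 in each WT library and 2.11 to 2.29 in each of the others, with no overlap. How often shares or ratios of other genes separate in this way was not computed. Within the ckmt2 pair, the share of ckmt2b was 0.578%, 1.15% and 1.34% in WT libraries 1 to 3 and 2.14%, 2.53% and 5.19% in the other libraries. These ratios do not depend on the scaling of a library. The difference in the ckmt2b share was 2.26 percentage points, and it was 1.31 without library 3 labelled samd7-/-. Of the kinases, the 5 other than ckbb and ckmt2a made up 0.160% to 0.390% of the sum in WT and 0.808% to 1.67% in the other group. Most of this was ckmt2b, at 0.141% to 0.293% in WT and 0.696% to 1.64% in the other group. Its highest share was in library 3 labelled samd7-/-. The sum that these shares refer to was also smaller in that group.

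**Figure D3:**
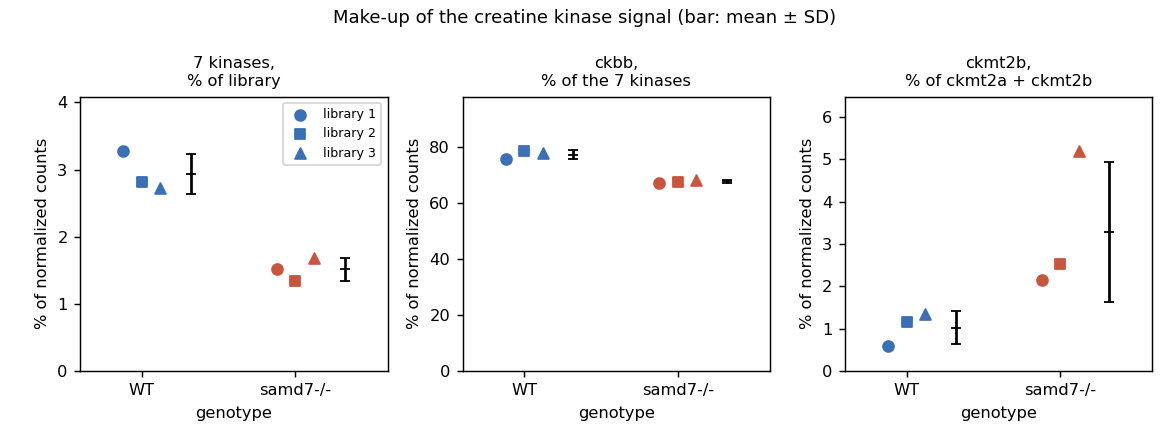
Share of all normalized counts held by the 7 kinases (left), share of ckbb in their sum (middle) and share of ckmt2b in the ckmt2a and ckmt2b pair (right), by genotype, with one point per library and the mean ± SD in black. In each panel the genotypes do not overlap, and library 3 labelled samd7-/- at 5.19% lies apart in the right one. How often such shares separate for other genes was not computed.

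Library by library, ckbb and ckmt2a kept the same order within each genotype. WT library 1 was the highest of its group for both, and library 3 labelled samd7-/- was the highest of its group for both. The total normalized counts of the libraries had that same order, so it was not particular to these genes. WT library 1 had the lowest WT level of ckmt2b, whereas library 3 labelled samd7-/- had the highest of all 6.

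The muscle-type kinases ckma and ckmb each reached 10 normalized counts in only 2 libraries and were not tested. The level of ckma was 0, 76.1 and 65.2 normalized counts in WT and 0, 7.47 and 0 in the libraries labelled samd7-/-. That of ckmb was 0 in each WT library and 19.8, 31.4 and 0 in the other group. The genotypes overlapped for both, each having at least 1 library at 0. Of the 28 skeletal muscle markers that the table holds, 13 were at 0 in all 6 libraries, among them the fast myosin heavy chains myhz1.1 and myhc4 and the troponin tnnc2. Leaving out the tropomyosin tpma, which other cells also express, the summed markers came to 380, 176 and 73.2 normalized counts in WT and 183, 195 and 45.3 in the other libraries, in the order of their numbers. This muscle sum was highest in WT library 1, where ckma and ckmb were at 0. Among the libraries labelled samd7-/-, ckmb and the muscle sum were both highest in library 2 and lowest in library 3. The part of muscle cells in the ckma and ckmb values was not tested.

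The genes for making creatine were barely read in these cells. The first enzyme, gatm, which joins arginine and glycine into guanidinoacetate, had 0 reads in all 6 libraries, and each library thus allows at most 3 reads. The second enzyme, gamt, which methylates guanidinoacetate to creatine, had 16.8, 89.7 and 89.2 normalized counts in WT and 0, 91.1 and 42.7 in the libraries labelled samd7-/-. The genotypes overlapped. The log2 difference of gamt was -1.73 (SE 1.71, 95% interval -5.41 to 1.96, limma adjusted p = 0.644), and it was 0.27 without library 1 labelled samd7-/-. The value of gamt was -0.55 with edgeR and with DESeq2 and -0.77 with a pseudocount of 10.

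Around the creatine system, the genes of 4 further lists that limma called were lower in the libraries labelled samd7-/-, while most genes of these lists were not called. Among all 9886 tested genes limma called 3.90% lower and 1.26% higher, so that 24.5% of its calls were higher. With DESeq2 or with library totals in place of the authors' scaling, some genes of these lists were called higher, as given below. Of 4 adenylate kinases tested, which exchange phosphate among adenine nucleotides, 1 fell and 0 rose with limma (median log2 difference -0.66, against 0.05 for all genes tested). This was the mitochondrial ak4, from 1410 ± 178 to 567 ± 73.1 normalized counts (log2 change -1.31, SE 0.26, limma adjusted p = 0.00849). Its limma adjusted p was 0.0502 without WT library 2. The cytosolic ak1 had 3420 ± 707 and 1832 ± 753, a log2 difference of -0.96 that missed the threshold (limma adjusted p = 0.0570, DESeq2 adjusted p = 0.0249).

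Of 10 genes for carrying nucleotides and phosphate across the mitochondrial membranes, 2 fell and 0 rose with limma (median 0.12). The shares over all tested genes were 3.90% lower and 1.26% higher. The ATP-magnesium and phosphate carrier slc25a24 went from 3332 ± 417 normalized counts to 651 ± 166 (log2 change -2.38, SE 0.24, limma adjusted p = 5.74e-05). The phosphate carrier slc25a3a fell from 24342 ± 2718 to 14675 ± 2570 (log2 change -0.74, SE 0.17, limma adjusted p = 0.0227). Of the 6 libraries, the slc25a3a call survived only the loss of library 3 labelled samd7-/-. Its limma adjusted p was 0.117, 0.0873 and 0.0610 without WT library 1, 2 or 3, and 0.109 and 0.0546 without library 1 or 2 labelled samd7-/-. The ADP/ATP translocase slc25a5, a further abundant gene of mitochondrial energy export, had 146081 ± 9355 and 153095 ± 34638, a log2 difference of 0.05 (limma adjusted p = 0.923). The porin vdac1 of the outer membrane, named after its values were seen, had a log2 difference of 0.31 (limma adjusted p = 0.363). That of slc25a3b, the paralog of slc25a3a and likewise named afterwards, was 0.44 (limma adjusted p = 0.144). Under library totals both were called higher, vdac1 by 0.54 (limma adjusted p = 0.0202) and slc25a3b by 0.68 (limma adjusted p = 0.0131), and DESeq2 also called slc25a3b higher (adjusted p = 0.0296).

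Of 15 genes for the supply of arginine, glycine and methyl groups, 2 fell and 0 rose with limma (median 0.10). Over all tested genes limma called 3.90% lower and 1.26% higher. The mitochondrial arginase arg2 went from 2982 ± 366 normalized counts to 1374 ± 593 (log2 change -1.19, SE 0.27, limma adjusted p = 0.0195). Its limma adjusted p was 0.0895 without WT library 1, 0.0786 without WT library 2 and 0.0660 without library 2 labelled samd7-/-. Ornithine decarboxylase odc1 fell from 2870 ± 195 to 1685 ± 355 (log2 change -0.79, SE 0.21, limma adjusted p = 0.0463), with edgeR giving an adjusted p of 0.0583. The odc1 call was lost on leaving out WT library 1, 2 or 3 (limma adjusted p = 0.146, 0.147 and 0.0866) or library 1 or 3 labelled samd7-/- (0.189 and 0.0601). Both enzymes use up arginine or its product ornithine. The hydrolase ahcy, which removes the by-product of methylation, had 2993 ± 534 and 4823 ± 565, a log2 difference of 0.70 that missed the threshold (limma adjusted p = 0.0537). It was called higher by DESeq2 (adjusted p = 0.00925) and under library totals (0.93, limma adjusted p = 0.00637). Under library totals the calls of arg2 (limma adjusted p = 0.0677) and odc1 (limma adjusted p = 0.172) were lost. Of other transporters of creatine, its precursor or related solutes, only the taurine transporter slc6a6b passed the filter on low values. It went from 2226 ± 277 normalized counts to 1004 ± 101 (log2 change -1.15, SE 0.21, limma adjusted p = 0.00666).

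**Figure D4:**
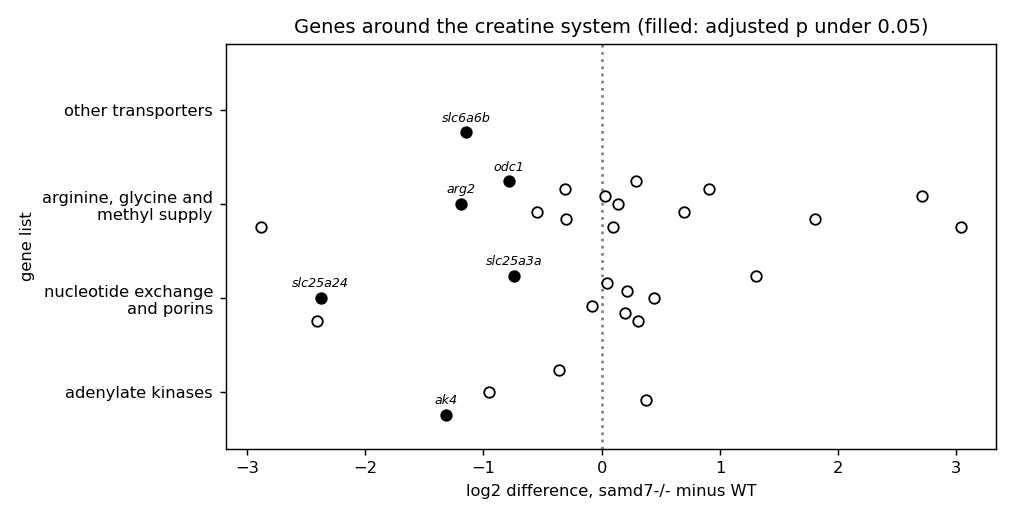
Log2 difference, samd7-/- minus WT, of each tested gene in 4 lists around the creatine system, with filled and named points where the limma adjusted p is under 0.05. All 6 filled points lie below 0, and open points lie on both sides.

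Abundant genes often fell in the libraries labelled samd7-/-, with ckbb and ckmt2a counted among them here. Of 31 genes whose mean over the 6 libraries reached 50000 normalized counts, a limit set after the values were seen, 48.4% were called lower and 6.45% higher with limma. Over all tested genes these shares were 3.90% and 1.26%. The cone genes arr3a, opn1lw2, pde6h, pde6c and gnat2 were among the abundant genes called lower. The median log2 difference of the 31 genes was -0.72, close to the -0.71 of ckmt2a. Under library totals that median was -0.49, and the value of ckmt2a was -0.48. A log2 difference as low as that of ckbb, or lower, was found in 5 of them, ckbb included.

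Over the 6 libraries, the gene with the pattern most like that of ckbb was slc25a42, a mitochondrial coenzyme A carrier, among the 9885 other genes tested. Likeness was the Euclidean distance between log2 values centred on each gene's mean, which was 0.15 for slc25a42. The next were the glutamate transporter slc1a2a at 0.23, rp2 at 0.28, kctd7 at 0.28 and gnb5b, a partner of the RGS9 protein that ends the light response, at 0.28. Their log2 differences lay between -1.47 and -1.30, near that of ckbb, as the choice by likeness entails.

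**Figure D5:**
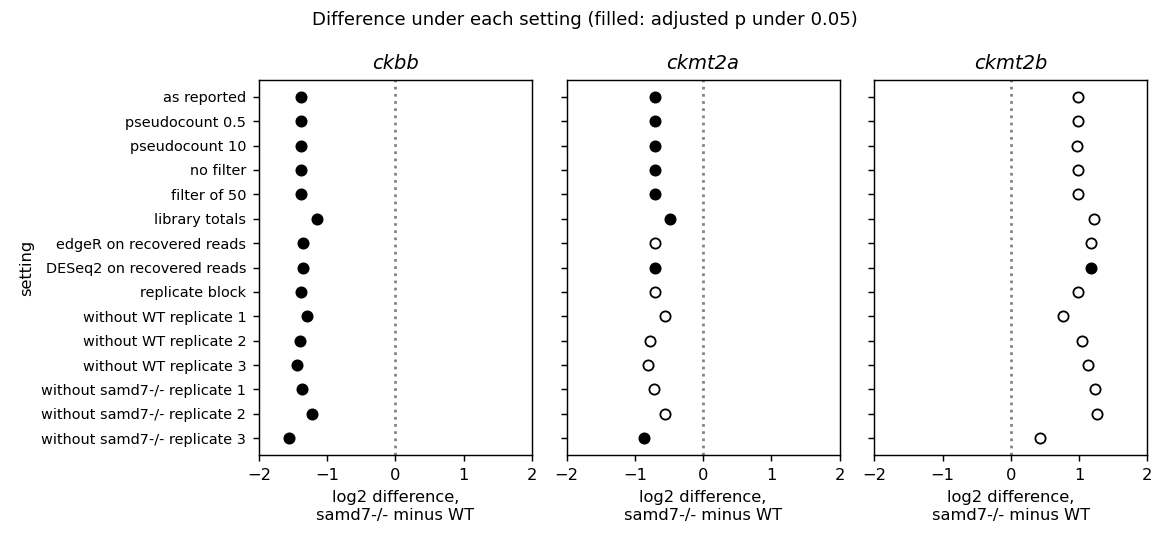
Log2 difference of ckbb, ckmt2a and ckmt2b, samd7-/- minus WT, as reported and under 14 other settings, with filled points where the adjusted p is under 0.05. All 15 points of ckbb are filled and lie between -1.56 and -1.15, whereas ckmt2a is filled in 8 and ckmt2b in 1.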

How the data were processed

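The authors deposited 1 table with a signal per gene and library, group means, the log2 fold change between genotypes and its adjusted p-value, and the last pair of columns is named as the authors' wherever it is quoted. The submitters' processing notes list STAR 2.7.2b, Trim Galore 0.6.1, DESeq2 1.34.0, HTSeq 0.9.1, the build danRer10 and R 4.1.3. The annotation, the strand setting and the treatment of shared reads were not stated there. Per the labels' protocols, 300 pg of RNA from 10000 to 25000 sorted cells was amplified for 14 cycles as cDNA and 15 as library. No molecular identifiers are described, so limits from counts cover counting error only. The deposited signal was a read count over a size factor: 100% of values above 0 were whole multiples of a library's smallest value to within 0.01 read.

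Because the table holds normalized values and not raw counts, limma was the test, as the design laid down, and log2(value + 1) was fitted with version 3.58.1 in R 4.3.3 (genotype as only term, trend and robust options) over 9886 genes with at least 10 in at least 3 libraries, with Benjamini-Hochberg adjustment. This called 511 genes, while edgeR 4.0.16 (quasi-likelihood, TMM) on recovered reads called 431 and DESeq2 1.42.0 called 870. Fold changes are on the log2(value + 1) scale: the added 1 understates changes of low genes, but a library at 0 can make the difference of mean logs larger than the log2 ratio of the means, as for ckba and gamt. The limma and edgeR fits were tested on simulated data. The members and 18 lists were chosen with earlier results of these data known. Of 225 list entries 198 matched by symbol and 8 by older symbol. Genes named are the members, the called genes (up to 6) and the most abundant tested gene of each list that is not of a cell type, and the 5 genes nearest ckbb in pattern. Replicate numbers were not taken to pair the libraries. The correlation of deviations was 0.046, -0.034 and 0.012 between same-numbered libraries and -0.051 to 0.040 between the others. These values cannot settle whether the libraries were paired. Other settings were 2 pseudocounts, 2 filters, library totals, edgeR, DESeq2, a replicate block and leaving out each library.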

Additional observations from a re-analysis of the deposited data

How the results depend on the processing

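The fall of ckbb kept its direction and its call under all 14 alternatives, with log2 changes from -1.56 to -1.15 and adjusted p from 2.08e-11 to 0.00779. For ckmt2a the direction was kept under all 14 but the call was lost under 7. These were edgeR (log2 change -0.71, adjusted p = 0.0958), the replicate block (-0.71, adjusted p = 0.0783) and 5 of the 6 settings that leave out a library, which ranged from -0.86 to -0.55. For ckmt2b DESeq2 alone made a call (1.17), and leaving out a library gave 0.43 to 1.27. With a library left out, the log2 difference ranged from -3.73 to 0.37 for ckba, from -2.99 to 0.27 for gamt and from 0.79 to 3.99 for ckmt1. The reversals were those without the library at 0, library 3 labelled samd7-/- for ckba and library 1 for gamt. A filter of 50 left ckmt1 untested. The difference in the ckbb share of the kinase sum was -10.5 to -9.06 percentage points with a library left out.

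Of all genes tested, 511 changed, 125 higher and 386 lower. Library totals in place of the authors' scaling gave 415 higher and 252 lower, so that 62.2% of calls were higher against 24.5%, and moved the median of all genes by 0.23 on the log2 scale. The log2 changes of ckbb and ckmt2a were then -1.15 and -0.48, both still called. DESeq2 called 870 genes, 325 higher. With a library left out the count ranged from 225 to 573, with 40 to 125 higher and 185 to 448 lower. The replicate block called 431 genes, although not every library correlated best with its own number. Shares of kinases per coding length were not run, as no lengths were at hand. With 3 libraries per genotype, and kinases other than ckbb, ckmt2a and ckmt2b at low counts, the 95% intervals of ckba, ckmt1 and gamt were wide. On the log2 scale they reached from -7.41 to 2.78 for ckba, from -3.15 to 7.34 for ckmt1 and from -5.41 to 1.96 for gamt.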

Other observations

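The pumps that consume much of a photoreceptor's ATP were also read, as values beside the kinases. Of 15 subunits of sodium pumps and of calcium pumps tested, 3 rose and 1 fell with limma in the libraries labelled samd7-/- (median log2 difference 0.14). Among all tested genes limma called 1.26% higher and 3.90% lower. The catalytic subunit atp1a1a.1 of the sodium pump went from 11771 ± 1187 normalized counts to 3204 ± 667 (log2 change -1.89, SE 0.19, limma adjusted p = 5.74e-05), while its paralog atp1a1b rose from 616 ± 184 to 1931 ± 456 (1.67, SE 0.28, limma adjusted p = 0.00352). Both calls held with each library left out. The handling of reads that match several sodium pump copies was not stated in these sources. The accessory subunit atp1b1a rose from 9161 ± 1948 to 18001 ± 2905 (log2 change 0.99, limma adjusted p = 0.00922), a call lost without WT library 2 (0.0713) or library 1 labelled samd7-/- (0.0628). With a library left out, the rise of atp1b3a (log2 change 1.11, limma adjusted p = 0.0466) was kept only without library 3 labelled samd7-/- (0.0352). The atp1b3a call was kept with DESeq2 (adjusted p = 0.00957) and under library totals (limma adjusted p = 0.0252), but not with edgeR (adjusted p = 0.0548). Without WT library 1, 2 or 3 its limma adjusted p was 0.0927, 0.170 and 0.0662, and without library 1 or 2 labelled samd7-/- it was 0.138 and 0.176. The most abundant of these genes, atp1b2b, had a log2 difference of -0.52 that missed the threshold (limma adjusted p = 0.101). DESeq2 called atp1b2b lower (adjusted p = 0.0194), along with atp1b2a (0.0285) and atp2b1b (0.00529), and called atp2b1a higher (0.0271). Under library totals atp2b1a and atp1a3a were called higher (limma adjusted p = 0.0443 and 0.0249). Apart from atp1b2b, these genes were named after their values were seen.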
